A study of Mus musculus with 13 samples.

Results

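The lysosomal genes described here are 38 genes chosen by symbol: soluble hydrolases and their cofactors, lysosomal membrane proteins and the transcription factors Tfeb and Tfe3. All 38 stood in each of the 3 comparison tables, out of 17562 genes present in at least 1 table and 13482 present in all 3. Progranulin (Grn) and prosaposin (Psap) are not among them. Cortical RNA of 13 male mice, 18 months old, had been sequenced. Of these, 4 mice were Grn-/-;GRNtg, with both mouse Grn alleles lost and a human GRN transgene, which the labels call humanized and progranulin deficient. A further 4 mice were Grn+/-, with a single functional mouse allele, and 5 were wild type (Grn+/+). The sources used here do not give the strain, the promoter and copy number of the transgene or any littermate relation. The tables hold no values per mouse, so each result below is a fold change with its standard error (SE) from the authors' model rather than a set of individual values.

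The lysosome is the acidic compartment in which cells break down proteins, glycans and lipids. Its soluble hydrolases are delivered mainly by mannose 6-phosphate receptors, and its membrane proteins form the wall, the transporters and the ion channels. Progranulin itself is carried to lysosomes and cut there into granulins. Tfeb and Tfe3 switch on many lysosomal genes together through a short DNA element, the CLEAR element, which contains the E-box CACGTG. Mice that lack progranulin altogether are known for lipofuscin and for raised lysosomal gene expression in the ageing brain, and inherited loss of many of the enzymes listed here causes a storage disease with neuronal involvement.

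Grn checked the genotype labels. Its RNA was at 24.7% of wild type in Grn-/-;GRNtg mice (log2 fold change -2.02 ± 0.081 SE) and at 63.6% in Grn+/- mice (-0.65 ± 0.077) in the authors' deposited tables, with a mean normalized count of 784. The sources used here do not say whether reads of the human transgene were counted for the mouse gene. Nor do they state whether the authors shrank fold changes towards 0. If they did, the percentages here and below lie closer to wild type than an unshrunken fit would give. Markers of neurons, astrocytes, oligodendrocytes and microglia were all measured, as a cortex should give, whereas 1 of 5 choroid plexus markers was listed. Among the marker lists, 3 of 6 endothelial genes were lower in Grn-/-;GRNtg than in wild-type mice and 2 of 8 astrocyte genes were lower in Grn+/- than in wild-type mice. Of 4 liver genes listed, 3 (Apoa1, Apoa2 and Ahsg, each at a mean normalized count under 27) were higher in Grn-/-;GRNtg than in wild-type mice, with a list median of 0.66. Of the 7 leptomeningeal genes all lay above 0 there and Mgp passed, and of the 7 excitatory neuron genes Camk2a was lower (-0.20 ± 0.055 in the authors' deposited table). Of 7 nuclear-retained RNAs, 1 was lower in Grn-/-;GRNtg and 4 were lower in Grn+/- mice against wild type, with all 7 below 0 in both. Among them Malat1 was lower in both (-0.62 ± 0.109 in Grn-/-;GRNtg and -0.43 ± 0.109 in Grn+/- mice in the authors' deposited tables). The p-values rest on the spread between mice in the authors' fit, and no label says whether littermates or batches are among them.

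Few lysosomal genes differed in transcript level between the genotypes. By the authors' deposited table of Grn-/-;GRNtg against wild-type cortex, Gaa and Idua were higher and none of the 38 genes was lower, with an adjusted p under 0.05 as the limit. That is 2 of 38, against 4.87% of all 14961 genes in the comparison (1.81% higher and 3.05% lower), a share near that of all genes. At an unadjusted p under 0.05 it was 9 of 38, against 20.5% of all genes, and at an adjusted p under 0.10 it was 4 of 38, against 9.33%. Of Grn+/- against wild-type cortex, 0 of 38 passed, against 6.8% of all 13482 genes (2.29% higher and 4.51% lower). There 3 of 38 had an unadjusted p under 0.05, against 20.2% of all genes, and 2 of 38 an adjusted p under 0.10, against 10.6%. Between Grn-/-;GRNtg and Grn+/- cortex 0 of 38 passed, against 0.467% of all 17562 genes, with 3 of 38 at an unadjusted p under 0.05, against 8.99% of all genes. In bulk cortex, fewer cells of a type and less RNA per cell cannot be told apart.

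The fold changes of the 38 genes were small and centred near 0. The median log2 fold change was 0.01 in Grn-/-;GRNtg against wild type, with a range of -0.21 to 0.26, and the median of all genes there was 0.005. In Grn+/- against wild type the median was 0.04, the range was -0.14 to 0.18 and the median of all genes was 0.008. Between Grn-/-;GRNtg and Grn+/- the median was -0.04, the range was -0.22 to 0.23 and the median of all genes was 0.001. The lysosomal genes lay within 0.1 of 0 on the log2 scale in 24, 27 and 25 cases in these comparisons, which is 63.2%, 71.1% and 65.8% of them, against 51.3%, 53.3% and 67.0% of all genes. Their SEs were also smaller, with medians of 0.076, 0.076 and 0.079, against 0.098, 0.094 and 0.094 over all genes. The part of this difference in precision in the shares was not tested.

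The tables also bound what could have gone unseen. SEs of the 38 genes ran between 0.047 and 0.121, so the smallest log2 fold change that could have been called for a member was 0.14 to 0.36 in Grn-/-;GRNtg against wild type, 0.14 to 0.35 in Grn+/- against wild type and 0.18 to 0.45 between the mutant groups. The 95% intervals of all members stayed between -0.40 and 0.42 in Grn-/-;GRNtg mice against wild type and between -0.32 and 0.39 in Grn+/- mice against wild type. Between the mutant groups they stayed between -0.36 and 0.41. The intervals are the authors' fold change plus or minus the normal quantile times the SE. If the authors shrank fold changes towards 0, which no source used here states, they are tighter than an unshrunken fit would give.

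**Figure D1:**
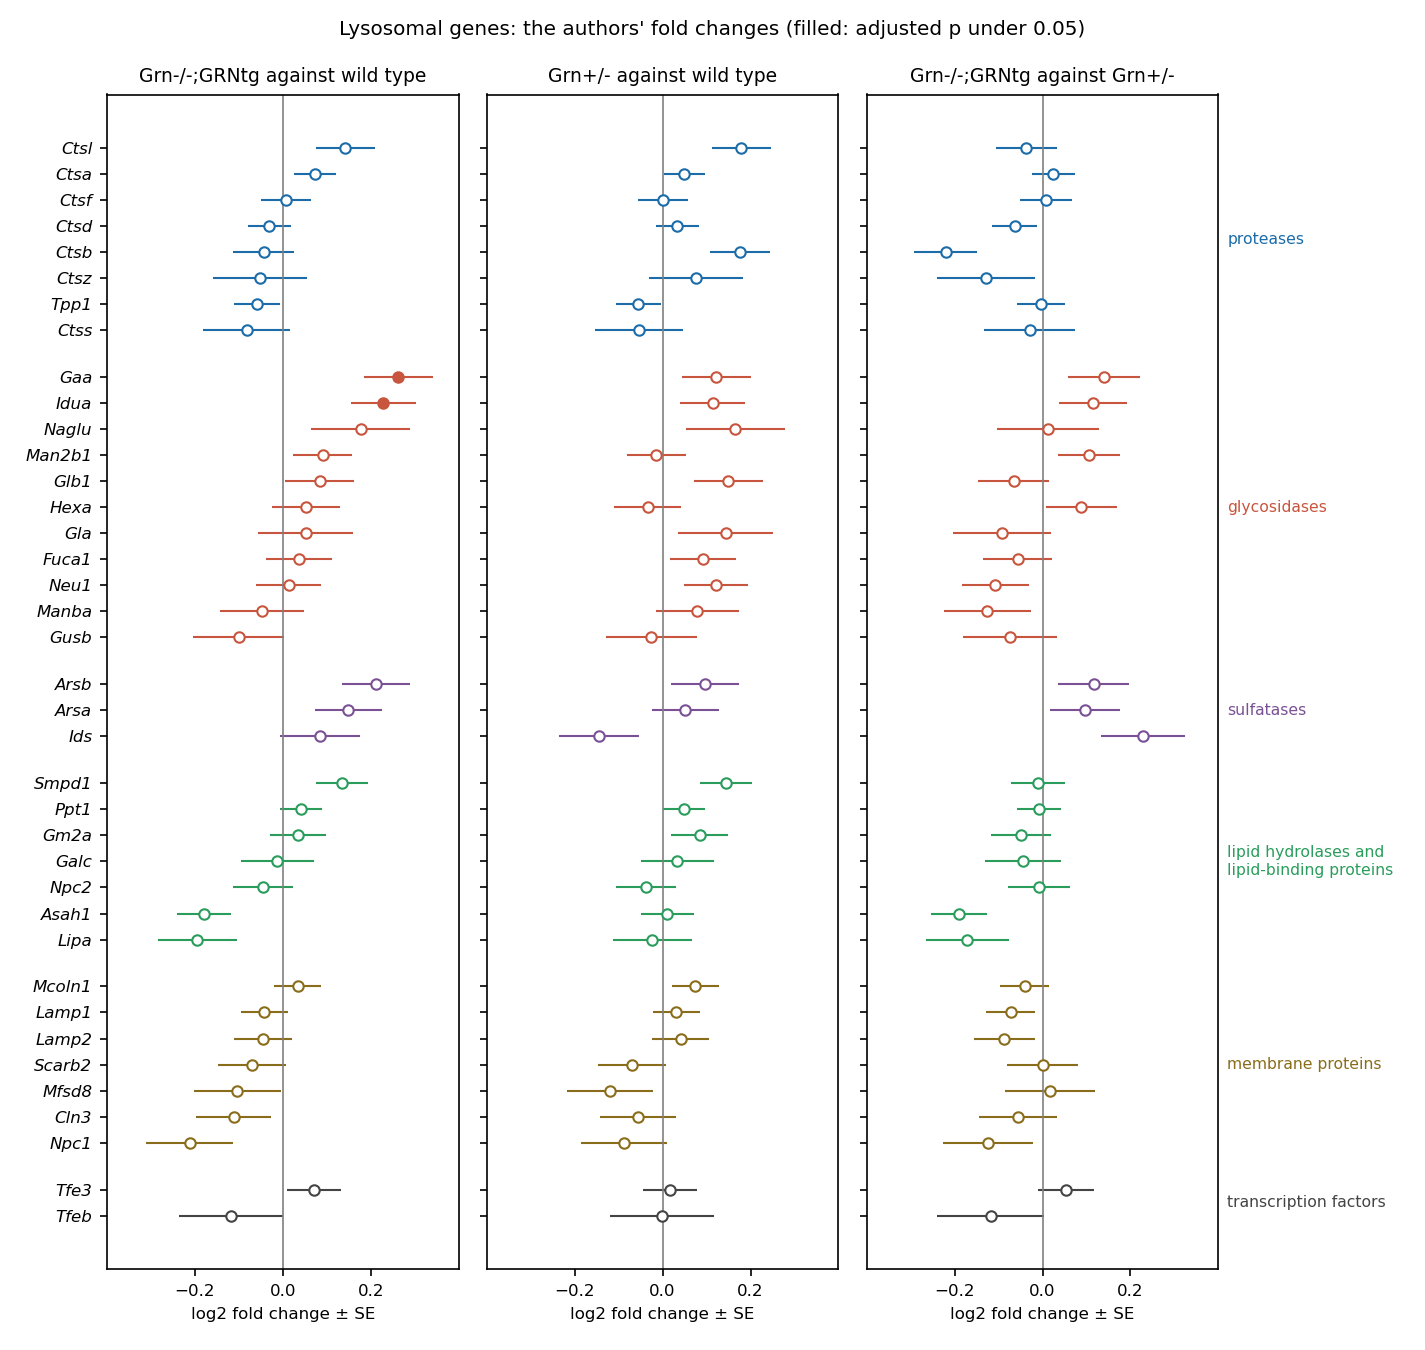
Log2 fold change with SE (x axis) of the 38 lysosomal genes (rows, grouped by role and coloured by group) in the 3 comparisons from the authors' deposited tables; filled points have an adjusted p under 0.05. Gaa and Idua in the left panel are the 2 filled points.

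**Figure D2:**
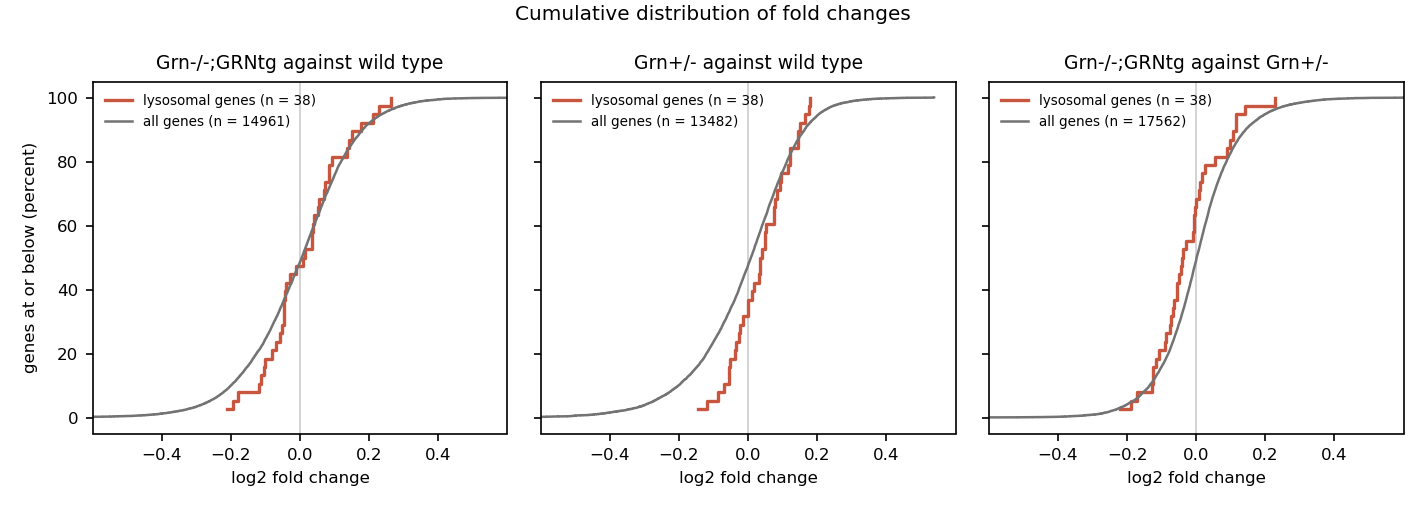
Cumulative percentage of genes (y axis) at or below each log2 fold change (x axis) for the 38 lysosomal genes (red) and all genes of the table (grey), 1 panel per comparison. The red curve lies close to the grey one around 0 in the left panel (medians 0.01 and 0.005), to its right in the middle panel (medians 0.04 and 0.008) and to its left in the right panel (medians -0.04 and 0.001).

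Lysosomal transcripts were abundant in this cortex. Levels were compared between genes as the authors' mean normalized count over the 13 mice per kilobase of the longest protein-coding transcript. The median of the 38 genes was 292 per kilobase, against 160 over 12659 genes, and 28 of the 38 stood above that all-gene median. Ctsd, the main aspartic protease of the lysosome, was the most abundant at 3293 per kilobase. Next came the membrane glycoprotein gene Lamp1 at 2530, the cysteine protease gene Ctsb at 2361 and the acid alpha-glucosidase gene Gaa at 2185 per kilobase. The lowest were the beta-mannosidase gene Manba at 59.8, the alpha-galactosidase gene Gla at 68.5 and the membrane transporter gene Mfsd8 at 70.1 per kilobase. Per kilobase of coding sequence, Ctsb led instead and Manba was again the lowest. The 38 genes together made up 0.386% of all counts assigned to genes.

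**Figure D3:**
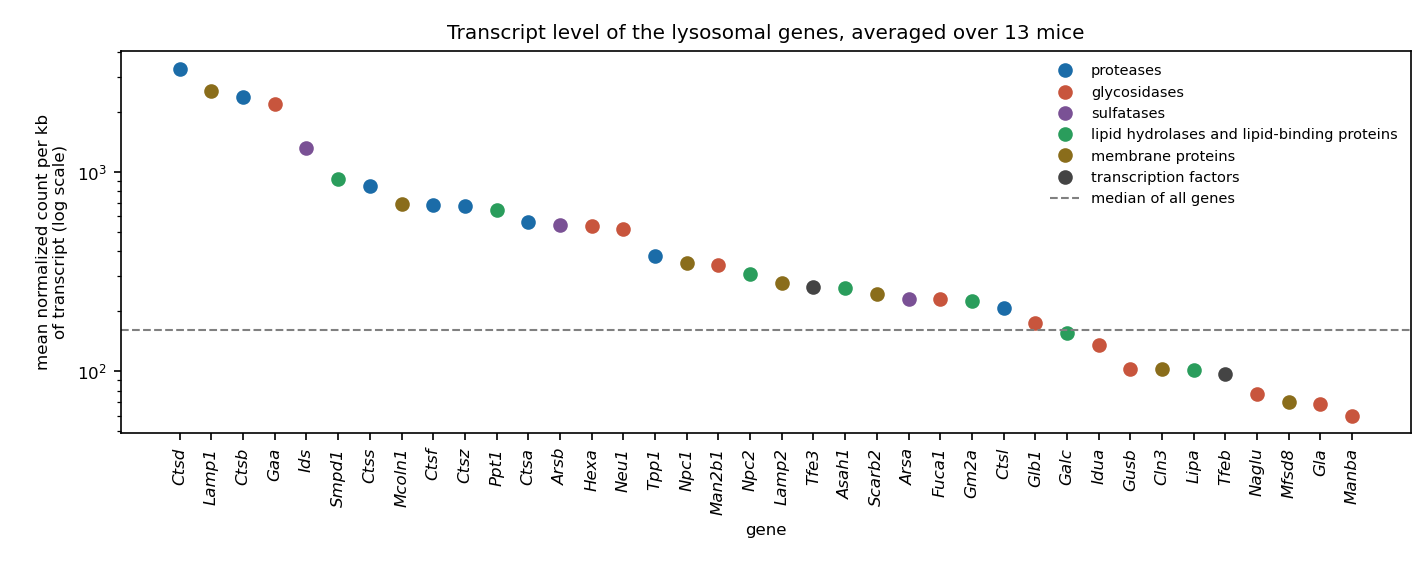
Mean normalized count per kilobase of transcript (y axis, log scale) of each of the 38 lysosomal genes over all 13 mice, in descending order and coloured by role, with no error because the tables hold none; the dashed line is the median of all genes. Ctsd is highest at 3293 and Manba lowest at 59.8, and 28 genes lie above the line at 160.

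The glycosidases, which trim sugars from glycoproteins, glycolipids and polysaccharides, held both genes that passed. Gaa, acid alpha-glucosidase, degrades glycogen in the lysosome and its loss causes Pompe disease. It lies at chr11:119267887-119285454 on the plus strand (ENSMUSG00000025579.14, GRCm38) and shares no exon with another annotated gene. Its mean normalized count was 7938. Gaa rose to 120% of wild type in Grn-/-;GRNtg mice, with a log2 fold change of 0.26 ± 0.079 (95% interval 0.11 to 0.42) and an adjusted p of 0.0266 in the authors' deposited table. In Grn+/- mice it was at 109% of wild type, 0.12 ± 0.079, with an adjusted p of 0.388 in the authors' deposited table, which did not pass. The Grn-/-;GRNtg against Grn+/- difference of 0.14 ± 0.082 (95% interval -0.02 to 0.30) had an adjusted p of 0.649 in the authors' deposited table, so the mutant groups were not shown to differ. The estimate in Grn+/- mice therefore lay between the other groups and passed against neither.

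Idua, alpha-L-iduronidase, removes iduronic acid from dermatan and heparan sulfate, and its loss causes mucopolysaccharidosis. It lies at chr5:108660331-108684557 on the plus strand (ENSMUSG00000033540.18, GRCm38) and had a mean normalized count of 478. Idua rose to 117% of wild type in Grn-/-;GRNtg mice, 0.23 ± 0.074 (95% interval 0.08 to 0.37) with an adjusted p of 0.0444 in the authors' deposited table. In Grn+/- mice it was at 108% of wild type, 0.11 ± 0.074 with an adjusted p of 0.396 in the authors' deposited table. The mutant groups differed by 0.11 ± 0.077 (95% interval -0.04 to 0.27, adjusted p 0.721 in the authors' deposited table). Idua thus had the same order of groups as Gaa. Idua shares 124 exon bases with Dgkq and 141 with Slc26a1, both on the opposite strand, and the strand setting of the counting is unknown from the sources used here. In the authors' deposited table of Grn-/-;GRNtg against wild type, Dgkq stood at 0.07 with an adjusted p of 0.545 and Slc26a1 at 0.07 with an adjusted p of 0.803, so neither neighbour passed. Neither Gaa nor Idua passed at an adjusted p under 0.01, or with all Wald statistics divided by their robust spread of 1.56, where 5 of all genes did.

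The upstream sequences of the called genes are shown because Gaa carries an E-box within 250 bases of its RefSeq start and Idua does not. They are reference sequences from RefSeq on GRCm38.p6, read 5′ to 3′ on the gene's strand, with CACGTG in capitals. The Gaa stretch is chr11:119267798-119267847 and the Idua stretch is chr5:108660251-108660330, both on the plus strand.
Gaa: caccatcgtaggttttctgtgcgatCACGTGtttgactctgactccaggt
Idua: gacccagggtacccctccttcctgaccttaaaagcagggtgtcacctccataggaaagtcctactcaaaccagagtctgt

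None of the other 9 glycosidase genes passed in any comparison. The nearest to Gaa and Idua was Naglu, which encodes the alpha-N-acetylglucosaminidase of heparan sulfate breakdown and is the glycosidase gene with the lowest count, 196. Naglu stood at 0.18 ± 0.112 in Grn-/-;GRNtg mice (adjusted p 0.368) and at 0.17 ± 0.113 in Grn+/- mice (adjusted p 0.424) against wild type in the authors' deposited tables. Glb1, the beta-galactosidase, was at 0.08 in Grn-/-;GRNtg and 0.15 in Grn+/- mice against wild type, and Gla at 0.05 and 0.14, in the authors' deposited tables. Neu1, the lysosomal sialidase, stood at 0.01 in Grn-/-;GRNtg and 0.12 in Grn+/- mice in those authors' deposited tables. The alpha-mannosidase gene Man2b1 was at 0.09 and -0.01, the beta-hexosaminidase subunit gene Hexa at 0.05 and -0.03 and the fucosidase gene Fuca1 at 0.04 and 0.09, in Grn-/-;GRNtg and in Grn+/- mice of the authors' deposited tables. Manba was at -0.05 and 0.08 and the beta-glucuronidase gene Gusb at -0.10 and -0.03 in the same order of groups in the authors' deposited tables. As a group, 9 of 11 glycosidase genes lay above 0 in Grn-/-;GRNtg mice with a median of 0.05, and 8 of 11 in Grn+/- mice with a median of 0.11, where 51.3% and 52.4% of all genes lay above 0. Both comparisons use the same wild-type mice, so these counts are not independent of each other. Between Grn-/-;GRNtg and Grn+/- mice 5 of 11 lay above 0, with a median of -0.06.

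The sulfatases remove sulfate groups from glycosaminoglycans and sulfatide. Arsb, arylsulfatase B, acts on dermatan sulfate and had the largest Wald statistic of the group. It stood at 0.21 ± 0.077 in Grn-/-;GRNtg mice against wild type with an adjusted p of 0.0800 in the authors' deposited table, just outside the threshold. Arsb in Grn+/- mice was at 0.10 ± 0.077 (adjusted p 0.519), and the mutant groups differed by 0.12 ± 0.081 (adjusted p 0.737), in the authors' deposited tables. Arsb shares 1948 exon bases with Gm26527 and 463 with Gm47210, both on the opposite strand, and their part in its counts was not tested. Ids, the iduronate sulfatase of heparan and dermatan sulfate, was the most abundant sulfatase transcript at 1311 per kilobase and the one whose estimates pointed apart. It stood at 0.08 ± 0.091 in Grn-/-;GRNtg mice and -0.14 ± 0.091 in Grn+/- mice against wild type in the authors' deposited tables, with adjusted p-values of 0.637 and 0.382. The direct contrast of Grn-/-;GRNtg with Grn+/- gave 0.23 ± 0.095 (95% interval 0.04 to 0.41) for Ids, the highest value of the 38 there, with an adjusted p of 0.396 in the authors' deposited table. Arsa, which removes sulfate from the myelin lipid sulfatide, was at 0.15 ± 0.076 in Grn-/-;GRNtg mice (adjusted p 0.243) and 0.05 in Grn+/- mice in the authors' deposited tables. Of the 5 members that degrade glycosaminoglycans (Ids, Idua, Arsb, Gusb and Naglu), only Idua passed, in Grn-/-;GRNtg mice against wild type.

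The proteases degrade proteins delivered by endocytosis and autophagy, and some of them cut progranulin into granulins. None of the 8 passed in any comparison. Ctsb, cathepsin B, had the largest absolute Wald statistic of the 38 genes between the mutant groups. It stood at 97.0% of wild type in Grn-/-;GRNtg mice (-0.04 ± 0.069, adjusted p 0.762) and at 113% in Grn+/- mice (0.18 ± 0.069, adjusted p 0.0994) in the authors' deposited tables. Its Grn-/-;GRNtg against Grn+/- value of -0.22 ± 0.072 (95% interval -0.36 to -0.08) had an adjusted p of 0.167 in the authors' deposited table, so the difference did not pass. Ctsb shares 774 exon bases with Fdft1, a cholesterol synthesis gene on the opposite strand that was higher in Grn-/-;GRNtg than in wild-type mice (0.25, adjusted p 0.00407 in the authors' deposited table). In Grn+/- mice against wild type Fdft1 stood at 0.18 (adjusted p 0.0552), beside 0.18 for Ctsb, in the authors' deposited table. The part of such shared bases in the Ctsb counts was not tested.

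Ctsl, cathepsin L, a cysteine protease like cathepsin B, lay above wild type in both mutant groups without passing. Its values were 0.14 ± 0.067 in Grn-/-;GRNtg mice (adjusted p 0.202) and 0.18 ± 0.067 in Grn+/- mice (adjusted p 0.0829) in the authors' deposited tables, and the mutant groups differed by -0.04 ± 0.070 (adjusted p 0.950). Ctsl shares 1742 exon bases with Gm47123 on the opposite strand and 395 with the pseudogene Gm49230. The part of these bases in the Ctsl counts was not tested. Ctsd was close to wild type in both mutant groups, at -0.03 ± 0.049 in Grn-/-;GRNtg and 0.03 ± 0.049 in Grn+/- mice in the authors' deposited tables. With its 95% intervals of -0.13 to 0.07 and -0.06 to 0.13, cathepsin D had one of the narrowest estimates of the group. Ctss, a cathepsin typical of microglia, stood at -0.08 ± 0.0996 in Grn-/-;GRNtg and -0.05 ± 0.0996 in Grn+/- mice in the authors' deposited tables. The carboxypeptidase gene Ctsa, whose product also protects beta-galactosidase and sialidase, was at 0.07 and 0.05, and Ctsf at 0.01 and 0.00, in Grn-/-;GRNtg and in Grn+/- mice of the authors' deposited tables. Ctsz was at -0.05 and 0.08 and Tpp1, the peptidase lost in a form of neuronal ceroid lipofuscinosis, at -0.06 and -0.05 in the authors' deposited tables. No protease estimate therefore left the band of -0.08 to 0.18 against wild type.

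Among the lipid hydrolases and lipid-binding proteins, none of 7 passed, and in Grn-/-;GRNtg mice the estimates of the ceramide and cholesterol ester enzymes lay below 0. Asah1, acid ceramidase, was the nearest to the threshold, at 88.3% of wild type in Grn-/-;GRNtg mice (-0.18 ± 0.061, adjusted p 0.0579 in the authors' deposited table). Asah1 in Grn+/- mice was at 0.01 ± 0.060 with an adjusted p of 0.947 in the authors' deposited table. Its difference between Grn-/-;GRNtg and Grn+/- mice was -0.19 ± 0.063 (95% interval -0.31 to -0.07, adjusted p 0.185 in the authors' deposited table). Lipa, the acid lipase of cholesterol esters and triglycerides, had the same pattern at a larger SE: -0.19 ± 0.091 in Grn-/-;GRNtg mice (adjusted p 0.194), -0.02 ± 0.090 in Grn+/- mice (adjusted p 0.924) and -0.17 ± 0.094 between them (adjusted p 0.604) in the authors' deposited tables. Both genes were thus lowest in Grn-/-;GRNtg mice by their estimates, and neither difference passed.

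Smpd1, acid sphingomyelinase, which makes the ceramide that acid ceramidase splits, lay on the other side. It stood at 0.13 ± 0.059 in Grn-/-;GRNtg mice (adjusted p 0.161) and 0.14 ± 0.059 in Grn+/- mice (adjusted p 0.121) against wild type in the authors' deposited tables. The mutant groups differed by -0.01 ± 0.062 (adjusted p 0.982) for Smpd1 in the authors' deposited table. The remaining 4 lay within 0.1 of 0 against wild type. These were Galc, which splits galactosylceramide of myelin, at -0.01 and 0.03, and the palmitoyl thioesterase gene Ppt1 at 0.04 and 0.05, in Grn-/-;GRNtg and in Grn+/- mice of the authors' deposited tables. Gm2a, the activator protein of ganglioside breakdown, was at 0.04 and 0.08 and the cholesterol-binding protein gene Npc2 at -0.05 and -0.04 in the authors' deposited tables. All 7 had a value below 0 in Grn-/-;GRNtg against Grn+/-, with a median of -0.05 and 0 called, where 50.8% of all genes lay above 0.

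Of the 7 membrane protein genes none passed, and 6 lay below 0 in Grn-/-;GRNtg mice against wild type with a median of -0.07. Npc1, which passes cholesterol out of the lysosome together with Npc2, had the lowest value of all 38 genes in that comparison, -0.21 ± 0.098 (95% interval -0.40 to -0.02, adjusted p 0.189 in the authors' deposited table). Npc1 in Grn+/- mice was at -0.09 ± 0.098 (adjusted p 0.672), and the mutant groups differed by -0.12 ± 0.102 (adjusted p 0.805), in the authors' deposited tables. Npc1 shares 511 exon bases with Rmc1 and 90 with Gm15956, both on the opposite strand, and their part in its counts was not tested. Both abundant coat glycoproteins of the lysosomal membrane had estimates near 0. Lamp1 was at -0.04 ± 0.054 in Grn-/-;GRNtg and 0.03 ± 0.054 in Grn+/- mice, and Lamp2 at -0.05 ± 0.066 and 0.04 ± 0.066, in the authors' deposited tables. The 95% intervals of Lamp1 were -0.15 to 0.06 and -0.07 to 0.14.

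Scarb2, the sorting receptor of glucocerebrosidase, was at -0.07 in both mutant groups against wild type in the authors' deposited tables. Mcoln1, the lysosomal calcium channel TRPML1, was at 0.03 in Grn-/-;GRNtg and 0.07 in Grn+/- mice in the authors' deposited tables. The neuronal ceroid lipofuscinosis genes Cln3 and Mfsd8 stood at -0.11 ± 0.086 and -0.10 ± 0.098 in Grn-/-;GRNtg mice, and at -0.06 and -0.12 in Grn+/- mice, in the authors' deposited tables. In Grn+/- mice 4 of the 7 membrane protein genes lay below 0 with a median of -0.06, and 3 lay above 0.

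The transcription factors that govern many of these genes did not pass in any comparison. Tfeb, a low transcript at 97.0 per kilobase, stood at -0.12 ± 0.118 in Grn-/-;GRNtg mice (adjusted p 0.608) and at -0.00 ± 0.118 in Grn+/- mice (adjusted p 0.999) in the authors' deposited tables. Tfe3, at 263 per kilobase, stood at 0.07 ± 0.061 in Grn-/-;GRNtg and 0.02 ± 0.061 in Grn+/- mice in the authors' deposited tables. Neither passed between the mutant groups, at -0.12 for Tfeb and 0.05 for Tfe3. Both factors act mainly by moving into the nucleus, which RNA levels do not report.

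A minority of the promoters of the lysosomal genes carried the element through which these factors act, at a larger share than promoters of all genes. RefSeq promoters on GRCm38.p6, taken as 250 bases before to 50 after each start, matched 35 of the 38 genes by symbol, and Ctsb, Asah1 and Npc1 had no entry. CACGTG, which reads the same on both strands, was found in 12 of 35, or 34.3% (Wilson 95% interval 20.8% to 50.8%), against 8.09% of 27025 genes with a promoter and 11.7% of the 10256 with a promoter that were listed in the Grn+/- table. The longer GTCACGTG, searched on both strands and containing CACGTG, was found in 9 of 35, or 25.7%, against 2.55% and 4.70%. TCACGTGA, which also contains CACGTG and overlaps GTCACGTG, was found in 5 of 35, or 14.3%, against 1.12% and 2.10%. A match is a description of these letters in the reference, not of binding. These shares describe the reference and the choice of genes, and are not a result of these mice. The 9 genes with GTCACGTG were Arsa, Cln3, Ctsa, Ctsd, Gla, Glb1, Lamp1, Mcoln1 and Naglu, while Ctsf, Ctsl and Gaa held CACGTG alone.

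These elements are printed from RefSeq (GRCm38.p6), 5′ to 3′ on the gene's strand, with CACGTG in capitals, because they are what the 9 genes share beyond their function. Lamp1 is shown over the 80 bases before its start, where 4 E-boxes stand in a row, and each of the others over the 24 to 30 bases around a single element. Their positions are chr8:13159081-13159160 (plus) for Lamp1, chr8:3500462-3500491 (plus) for Mcoln1, chr7:142387908-142387937 (minus) for Ctsd, chrX:134601182-134601211 (minus) for Gla, chr9:114401018-114401047 (plus) for Glb1, chr11:101070009-101070038 (plus) for Naglu, chr15:89477425-89477452 (minus) for Arsa, chr7:126583340-126583369 (minus) for Cln3 and chr2:164833749-164833772 (plus) for Ctsa.
Lamp1: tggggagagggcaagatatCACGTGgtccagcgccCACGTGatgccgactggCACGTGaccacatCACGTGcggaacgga
Mcoln1: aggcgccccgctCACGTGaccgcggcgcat
Ctsd: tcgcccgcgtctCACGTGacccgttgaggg
Gla: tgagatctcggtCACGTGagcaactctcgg
Glb1: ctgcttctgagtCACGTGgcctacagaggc
Naglu: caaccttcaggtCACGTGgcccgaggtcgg
Arsa: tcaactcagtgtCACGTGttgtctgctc
Cln3: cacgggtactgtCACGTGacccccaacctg
Ctsa: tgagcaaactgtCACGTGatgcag

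Where the elements lay differed from gene to gene. Starts here are those of RefSeq, which in Gaa and some other genes lie downstream of the GENCODE gene start. Counted from the annotated start to the first base of CACGTG, Lamp1 had E-boxes at -61, -45, -28 and -15, Mcoln1 at -71 and -45, Arsa at -16, Glb1 at -48 and Naglu at -73. Those of Ctsd stood at -245 and -98 and those of Gla at -227 and -194, so these promoters held theirs farther out. Gaa had its E-box at -140, Ctsf at -79 and Ctsl at -236. In Cln3 and Ctsa, each with 2 annotated starts, the elements belonged to the downstream start, at -149 and -121 in Cln3 and at -12 and 6 in Ctsa.

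**Figure D4:**
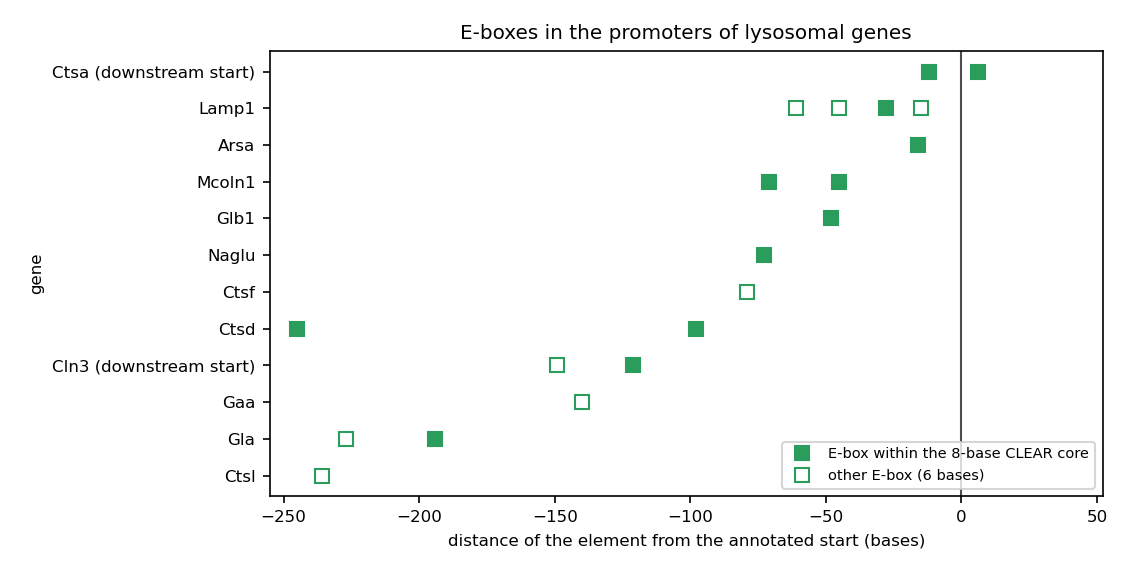
Distance in bases from the annotated RefSeq start (x axis) to the first base of each E-box in the promoters of the 12 lysosomal genes that hold one (rows); filled squares lie within the 8-base element and open squares do not. Lamp1 has 4 E-boxes between -61 and -15, and those of Gla and Ctsl lie at -194 or farther out.

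Fold changes of genes with and without the element were set side by side. The 9 genes with GTCACGTG had a median log2 fold change of 0.05 in Grn-/-;GRNtg and 0.05 in Grn+/- mice against wild type, with 0 called in either. The 26 genes without GTCACGTG, Gaa with its shorter CACGTG among them, had medians of 0.01 and 0.02, with 2 called in Grn-/-;GRNtg mice, Gaa and Idua, and 0 in Grn+/- mice. Between Grn-/-;GRNtg and Grn+/- mice the medians were -0.06 with GTCACGTG and -0.01 without it. Split by CACGTG instead, the 12 genes with it had a median of 0.06 in Grn-/-;GRNtg mice against wild type, with 9 above 0 and Gaa called, and the 23 without it had a median of -0.01, with 11 above 0 and Idua called. In Grn+/- mice against wild type the medians were 0.06 with CACGTG, with 11 of 12 above 0, and 0.02 without it, with 12 of 23 above 0, and 0 were called in either. Between Grn-/-;GRNtg and Grn+/- mice they were -0.04 with CACGTG and -0.01 without it. Over all genes, 51.3% lay above 0 and 4.87% were called in Grn-/-;GRNtg mice against wild type. In Grn+/- mice against wild type these shares were 52.4% and 6.8%. The 38 genes were chosen with earlier results of these data known, and both comparisons share the wild-type mice. No test was made of these splits.

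Set side by side, the mutant groups had the same sign against wild type in 27 of the 38 genes, 17 above 0 and 10 below 0 in both. A further 3 genes lay above 0 in Grn-/-;GRNtg and below 0 in Grn+/- mice, and 8 the other way round. Since both comparisons share the 5 wild-type mice, this agreement of sign is given as a count alone. The direct contrast of Grn-/-;GRNtg with Grn+/- mice is the test of a difference between them, and its smallest adjusted p over the 38 genes was 0.167, that of Ctsb, in the authors' deposited table. In that contrast 13 of 38 genes lay above 0, or 34.2%, against 50.8% of all genes.

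Other genes of the lysosomal pathway, 90 genes from lists of further hydrolases, sorting receptors, membrane proteins, TFEB relatives with the Rag, LAMTOR and mTORC1 genes, and autophagy genes, were read the same way. Against wild type 2 of 88 were higher and 1 lower in Grn-/-;GRNtg mice, where 1.81% and 3.05% of all genes were, with a median of 0.01. Those were Psap, the precursor of the saposin activators and a lysosomal sorting partner of progranulin, at 0.13 ± 0.042 (adjusted p 0.0420), the nutrient-sensing GTPase gene Rraga at 0.24 ± 0.074 (adjusted p 0.0392) and the arginine-sensing transporter gene Slc38a9, the lower one, at -0.24 ± 0.078 with an adjusted p of 0.0418, by the authors' deposited table. In Grn+/- mice 5 of 88 were higher and 0 lower, where 2.29% and 4.51% of all genes were, with a median of 0.05. These were Psap at 0.15 ± 0.042 (adjusted p 0.0114), Rraga at 0.25 ± 0.074 (adjusted p 0.0209) and Cln6 at 0.28 ± 0.096 (adjusted p 0.0498) by the authors' deposited table. The others were the autophagy receptor gene Sqstm1 at 0.17 ± 0.052 (adjusted p 0.0191) and the autophagy regulator gene Uvrag at 0.23 ± 0.066 (adjusted p 0.0185), as the authors' deposited table gives them. Between Grn-/-;GRNtg and Grn+/- mice 0 of 89 passed, with a median of -0.02.

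Markers of other cell types were read beside these genes. Of 15 microglial markers, 4 lay above 0 and 11 below 0 in Grn-/-;GRNtg mice against wild type, with a median of -0.03. The counts in Grn+/- mice against wild type were 3 and 12, with a median of -0.09. None of the 15 markers passed in any comparison. Cd68, a lysosomal marker gene, and the microglial receptor gene Trem2 were among the minority of these markers above 0. Cd68 stood at 0.12 (adjusted p 0.575) and 0.02 (adjusted p 0.942) in Grn-/-;GRNtg and in Grn+/- mice of the authors' deposited tables. Trem2 stood at 0.06 (adjusted p 0.737) and 0.05 (adjusted p 0.823) in the same order of groups. The 8 oligodendrocyte markers lay below 0 in both, with medians of -0.21 and -0.13 and SEs of 0.134 to 0.138, and 0 passed. Astrocyte markers had medians of -0.14 and -0.09, and endothelial markers -0.31 and -0.19. The part of these cell types, of the liver and leptomeningeal genes and of the nuclear-retained RNAs in the values of Gaa, Idua or the lower estimates of Asah1, Lipa and Npc1 was not tested.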

How the data were processed

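RNA-seq libraries were made from total RNA of mouse cortex with a directional kit, per the labels. The submitters' processing notes name DESeq2 1.34.0, R 4.1.2 and the build mm10. The sources used here do not give the aligner, counter, annotation or strand setting. The files used are the authors' comparison tables, without values or depth per mouse. Per the file headers, each table gives a mean normalized count (a signal averaged by the authors over libraries). The log2 fold change and its SE, as computed by the authors, stand beside the Wald statistic and the authors' raw and adjusted p-values. The deposited Wald statistic is a score, and division of the log2 fold change by its SE returned it in every row. Re-adjusting each table's p-values by Benjamini-Hochberg returned the deposited adjusted ones. SEs share a ceiling of 0.138, so fold changes may have been shrunk towards 0. Rows that name no gene were left out. In the table of Grn-/-;GRNtg against wild type, no_feature held 17.0% and ambiguous 0.607% of the mean normalized counts. The no_feature row was lower than wild type in both mutant groups by the authors' deposited tables. It stood at -0.18 ± 0.052 in Grn-/-;GRNtg mice (adjusted p 0.0241) and at -0.22 ± 0.052 in Grn+/- mice (adjusted p 0.00193). Between the mutant groups it stood at 0.04 ± 0.054 (adjusted p 0.911). Its part in the fold changes against wild type, those of Gaa and Idua among them, was not tested.

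A gene was called at an adjusted p under 0.05. Nothing was refitted, because no values per mouse were at hand. Computed here were counts and medians over members, percentages of wild type from the fold changes, 95% normal intervals, levels per kilobase of GENCODE M21 transcripts (GRCm38) and promoter motifs. Exon overlaps were read from the same annotation, and 16 of 38 members share exon bases with another gene. The re-adjustment, centring and scaling steps were tested on simulated data. The planted changes were far larger than those of the 38 genes. That test therefore does not show how well changes of the sizes reported here are recovered. Python 3.11.15, numpy 2.4.6, pandas 2.3.3, scipy 1.17.1 and matplotlib 3.10.9 were used.

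The members, role groups, pathway lists and marker lists were chosen with earlier results of these data known. Full statistics were given for called members and then for those with an absolute Wald statistic of at least 2 in any table (10 members in all). The rest were given by role. Outside the members, Grn, Psap and called genes of the pathway lists were named, while Malat1 and the other markers named, Fdft1, Dgkq, Slc26a1, Cd68, Trem2 and examples from lists were chosen after their values were seen. Alternatives were thresholds of 0.01 and 0.10, adjustment over genes in all tables, count minimums of 100 and 500, scaling by the robust spread, centring, a minimum log2 fold change of 0.2, an inverse-variance mean, coding length and other motifs. The results of 1 list of other pathway genes are not reported here on their own.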

Additional observations from a re-analysis of the deposited data

How the results depend on the processing

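In Grn-/-;GRNtg against wild type, 0 lysosomal genes passed at an adjusted p of 0.01 (254 of all genes) and 4 at 0.10, where Arsb and Asah1 joined Gaa and Idua (1396 of all genes). With Wald statistics divided by their robust spread of 1.56, 0 passed, as did only 5 of all genes against 728. Without members whose exons overlap another gene, an alternative chosen after seeing the data, 1 passed, Gaa. Asah1 also passed, as lower, with a mean count minimum of 100 and with centring. In Grn+/- against wild type 2 passed at 0.10, Ctsb and Ctsl (1423 of all genes), and 0 under every other alternative tried, with 357 of all genes at 0.01 and 3 under the robust spread. Between the mutant groups 0 members passed under all alternatives tried, while the count of all genes was 82, against 43 adjusted over genes in all tables, 36 with the count minimum, 29 under the robust spread, 35 at 0.01 and 159 at 0.10. Medians over members ran between 0.006 and 0.02 in Grn-/-;GRNtg against wild type, 0.01 and 0.04 in Grn+/- against wild type, and -0.04 and -0.02 between the mutant groups. Per kilobase of coding sequence the ratio of member to all-gene median was 2.21, against 1.82 per kilobase of transcript. The share of promoters with the element was 34.3% for CACGTG and 14.3% for TCACGTGA. For Gaa and Idua in Grn-/-;GRNtg against wild type, 10 of 14 alternatives kept the call and 4 lost it. The looser threshold and, at their values, the minimum log2 fold change could not have removed these calls. Of 196 alternatives for single values that were not called, 6 gained a call and 190 did not. The stricter threshold and the minimum log2 fold change could not have added a call. Only centring changes a single fold change, so the other alternatives could not have reversed a direction, and centring reversed none. No paired analysis was possible because the tables hold no values per mouse, and leaving out a mouse was not run for the same reason. Tfeb and Naglu, with few counts, had the largest SEs of the members in Grn-/-;GRNtg against wild type, 0.118 and 0.112, and depth per mouse is unknown.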

Other observations

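Gaa, Naglu and Gm2a are the 3 lysosomal genes on chromosome 11, which also carries Grn. Naglu starts 1.36 Mb from the start of Grn, Gaa 16.8 Mb and Gm2a 47.3 Mb. Against wild type in Grn-/-;GRNtg mice the log2 fold changes were 0.18 for Naglu, 0.26 for Gaa and 0.04 for Gm2a in the authors' deposited table, and in Grn+/- mice they were 0.17, 0.12 and 0.08. The sources used here do not say whether the DNA around the Grn allele differs in strain from wild type, and its part in these values was not tested.

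Among the other pathway lists, the 10 autophagy genes of the TFEB network had a median of 0.06 in Grn-/-;GRNtg mice, with 7 above 0, and of 0.08 in Grn+/- mice, with 8 above 0, against wild type. The called ones were Sqstm1 and Uvrag, in Grn+/- mice. The 15 TFEB relatives and Rag, LAMTOR and mTORC1 genes had medians of 0.01 and 0.07 in the same comparisons, with Rraga called in both. The 20 further lysosomal membrane protein genes had medians of -0.01 and -0.00, with Slc38a9 the only one called, lower in Grn-/-;GRNtg mice. Beside these lists, 4.87% of all genes were called and 51.3% lay above 0 in Grn-/-;GRNtg mice against wild type. The shares in Grn+/- mice against wild type were 6.8% and 52.4%. These lists were chosen with earlier results of these data known, and no test was made of them.

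Of the 21 genes that share exon bases with a lysosomal gene, 14 were in a table. Fdft1, the neighbour of Ctsb, was the only called one, in Grn-/-;GRNtg against wild type.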
